A study of Homo sapiens with 4 samples.

Results

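The genes described here were 56 that act in mitosis, namely its kinases, cyclins and phosphatases, the spindle checkpoint, the kinetochore, the spindle, cytokinesis and mitotic chromosome structure. Tubulins were left out, and so were kinesins other than CENPE. The 56 were chosen by name, with earlier results of these data known, and all were found among the 19626 genes measured. They were read in ES-2 cells, an established human ovarian clear cell carcinoma line that carries an endogenous YAP1-MAML2 (YM) fusion gene. One group was transduced with pLKO.1 lentiviruses carrying a non-targeting control shRNA (shCtl, n = 2 biological replicates), and the other with lentiviruses carrying shM2-3, an shRNA against a MAML2 sequence that the fusion also contains (n = 2). Both groups thus carried a lentiviral shRNA and were cultured independently; virus was added for 8 h on consecutive days and RNA was taken 96 h after the first infection according to the labels, while the methods of the study describe a shorter interval. With 1 line and 1 targeting shRNA in these libraries, loss of the fusion and loss of MAML2 itself cannot be told apart.

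Mitosis is driven by CDK1 bound to cyclin A or B, which CDC25 phosphatases switch on. Kinetochores join chromosomes to spindle microtubules, and the spindle checkpoint holds back the anaphase promoting complex (APC/C), a ubiquitin ligase, until every kinetochore is attached. Many of these genes are transcribed mainly in the G2 and M phases of the cell cycle, under the MYB-MuvB (MMB) complex and FOXM1, through a promoter element called CHR, often with CCAAT boxes upstream of it, and the DREAM complex keeps them silent in resting cells. In tumours their RNA follows the share of dividing cells. In these bulk libraries, fewer cells in G2 or M phase and less RNA per such cell cannot be told apart.

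The promoters are described first, since this design can be read in their sequence. A RefSeq promoter window on GRCh38.p14, from 250 bases before to 50 bases after the transcript start, was given for 46 of the 56 genes. CHR was searched on both strands in its usual form TTTGAA, in the form TTCGAA, and also in the form TTTAAA. It was present in 38 of the 46 promoters (82.6%), compared with 25.3% of all 27305 promoters and 16.6% of the 9525 promoters of other tested genes. CCAAT, searched on both strands, was present in 33 (71.7%), compared with 35.7% of all promoters, and at least 2 matches were present in 24 (52.2%), compared with 11.3%. Both motifs stood together in 29 (63.0%), compared with 9.95% of all promoters. The matches were not spread evenly. A CHR match began within 25 bases before the start in 26.1% of the mitotic promoters and in 1.05% of the other tested ones, and a CCAAT match began between positions -75 and -51 in 23 of the 46 and in 10.1% of the other tested ones. These are matches of short letter strings and not measured binding sites.

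**Figure D1:**
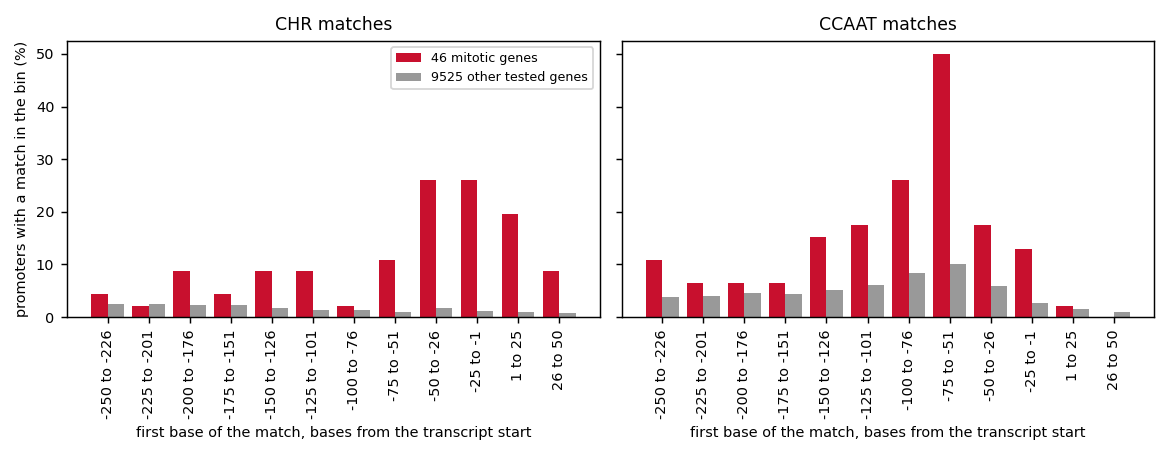
Percentage of promoters (y axis) with a CHR match (left) or a CCAAT match (right) that begins in each bin of distance in bases from the transcript start (x axis), for 46 mitotic genes (red) and 9525 other tested genes (grey). CHR matches of the mitotic genes gathered between positions -50 and 25 and CCAAT matches between -75 and -51, where 23 of the 46 mitotic promoters had one.

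Most of the lines that follow were set by rule, namely the promoters of the 3 genes with the lowest log2 fold change among those with a CHR match (GAS2L3, BUB1 and ANLN) and of the gene with the highest (CDC25B). The promoters of CCNB2, as an example of the shared layout, and of SPC25, which holds both motifs but did not pass the test, were added after values had been seen. Each runs 5′ to 3′ on the gene's own strand from 150 bases before the RefSeq start to 50 bases after it, on GRCh38.p14, and capitals mark CHR and CCAAT matches on either strand.
GAS2L3, chr12:100593468-100593667, plus strand: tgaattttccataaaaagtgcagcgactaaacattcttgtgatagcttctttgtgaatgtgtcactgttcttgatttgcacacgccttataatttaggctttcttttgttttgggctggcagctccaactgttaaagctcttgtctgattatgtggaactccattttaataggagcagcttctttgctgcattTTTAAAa
BUB1, chr2:110678014-110678213, minus strand: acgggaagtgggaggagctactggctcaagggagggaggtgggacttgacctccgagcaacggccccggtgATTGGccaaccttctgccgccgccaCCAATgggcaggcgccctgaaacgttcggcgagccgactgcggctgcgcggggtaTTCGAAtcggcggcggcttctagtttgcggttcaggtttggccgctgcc
ANLN, chr7:36389712-36389911, plus strand: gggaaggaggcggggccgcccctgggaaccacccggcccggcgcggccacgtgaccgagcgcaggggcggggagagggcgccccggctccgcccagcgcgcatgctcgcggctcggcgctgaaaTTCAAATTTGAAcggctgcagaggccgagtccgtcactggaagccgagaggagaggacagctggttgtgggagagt
CCNB2, chr15:59104996-59105195, plus strand: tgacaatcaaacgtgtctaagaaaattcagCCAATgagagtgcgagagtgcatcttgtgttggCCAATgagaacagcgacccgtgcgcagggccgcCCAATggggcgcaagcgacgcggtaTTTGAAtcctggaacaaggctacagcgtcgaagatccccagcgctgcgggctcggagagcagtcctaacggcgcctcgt
SPC25, chr2:168890381-168890580, minus strand: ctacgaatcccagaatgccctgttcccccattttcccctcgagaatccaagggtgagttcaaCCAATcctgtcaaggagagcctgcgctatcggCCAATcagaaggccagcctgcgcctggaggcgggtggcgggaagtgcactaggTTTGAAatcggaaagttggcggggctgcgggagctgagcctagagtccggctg
CDC25B, chr20:3786801-3787000, plus strand: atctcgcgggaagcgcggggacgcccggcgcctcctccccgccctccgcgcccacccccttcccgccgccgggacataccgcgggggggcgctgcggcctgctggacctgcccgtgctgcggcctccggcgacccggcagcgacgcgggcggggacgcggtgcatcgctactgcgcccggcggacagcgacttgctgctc
In CCNB2, the CCAAT matches at -120, -87 and -54 were spaced by 33 bases each and were followed by TTTGAA at -29. SPC25 also had CCAAT upstream of TTTGAA, but with 2 CCAAT matches in print, at -88 and -56, and TTTGAA nearer the start, at -3. The BUB1 match was TTCGAA at position 2, after CCAAT at -79 and -54, and ANLN had TTTGAA at -26 and -20 with no CCAAT. GAS2L3 had TTTAAA at -240, outside the printed stretch, and at 44, the form that any AT-rich stretch can hold. Its RefSeq start lies well inside the GENCODE gene (chromosome 12 from 100573683 to 100628288). The RefSeq start used for SPC25 also lies well inside its GENCODE gene (chromosome 2 from 168834132 to 168913371, minus strand). Among promoters not printed, the same holds for NUF2, CENPA, NUSAP1 and TACC3. CDC25B had neither motif in the whole window.

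Of the 56 mitotic genes, 54 fell after shM2-3 transduction, 1 rose (CDC25B) and 1 did not pass the test (SPC25), with a limit of 0.05 on the p that edgeR's quasi-likelihood test gave after Benjamini-Hochberg adjustment across 12157 genes. At this limit 36.4% of all tested genes were lower and 36.3% were higher. A fall of 2-fold or more was called for 22 of the 56 and a rise of that size for 0, where 8.93% of all tested genes were called lower and 9.24% higher. In 54 of the 56, both shM2-3 libraries lay below both shCtl libraries in RPKM (reads relative to transcript length and sequencing depth, so that levels of different genes can be compared), as they did in 47.1% of all tested genes. The median log2 fold change was -0.85, compared with -0.0037 over all tested genes. On the RPKM scale, which lacks edgeR's library scaling, the median share of the shCtl mean that remained was 52.9%, compared with 95.3% over all tested genes. A log2 fold change of -0.5 or lower was seen in 46 of the 56 (82.1%) and in 23.1% of all tested genes. Summed over the 56 genes, RPKM was 1808 and 1799 in the shCtl libraries and 923 and 919 in the shM2-3 libraries.

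The libraries held between 20051083 and 23978660 estimated counts, and the mitotic genes between 173 and 8494 in a library. The shRNA target MAML2, on the minus strand of hg38 chromosome 11 (95976598 to 96343195), was at 8.61 and 8.26 RPKM in shCtl and at 3.11 and 2.998 in shM2-3. MAML2 fell by 1.40 on the log2 scale (standard error 0.0688, adjusted p = 5.18e-10), and reads of the fusion's MAML2 part count toward it. Of the 7 ovarian clear cell and epithelial markers given here, the keratins KRT7, KRT8 and KRT18 were the 3 tested, while NAPSA, which typifies clear cell tumours, and PAX8, EPCAM and KRT19 were not above 1 RPKM in any library. The summed RPKM of the 7 was 637 in both shCtl libraries and 313 and 316 in the shM2-3 libraries. Of 6 fibroblast markers, COL1A2, COL3A1, DCN, LUM and POSTN were not above 1 RPKM in any library, and PDGFRA, the 1 tested, rose, from 7.58 and 7.51 to 25.2 and 24.8 RPKM, and the summed level went from 7.95 to 8.01 in shCtl to 25.1 to 25.7 in shM2-3. The 5 leukocyte markers measured summed to 57.4 to 58.3 in shCtl and 40.02 to 41.1 in shM2-3, nearly all of it CD68, which fell. PTPRC, CD3E and CD14 were not above 1 RPKM in any library, although CD14 was higher in shM2-3 (0.890 and 0.866) than in shCtl (0.0777 and 0.102), and LYZ was at 0.945 and 0.423 in shCtl and at 2.34 and 0.129 in shM2-3. The part of these shifts in the results was not tested.

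**Figure D2:**
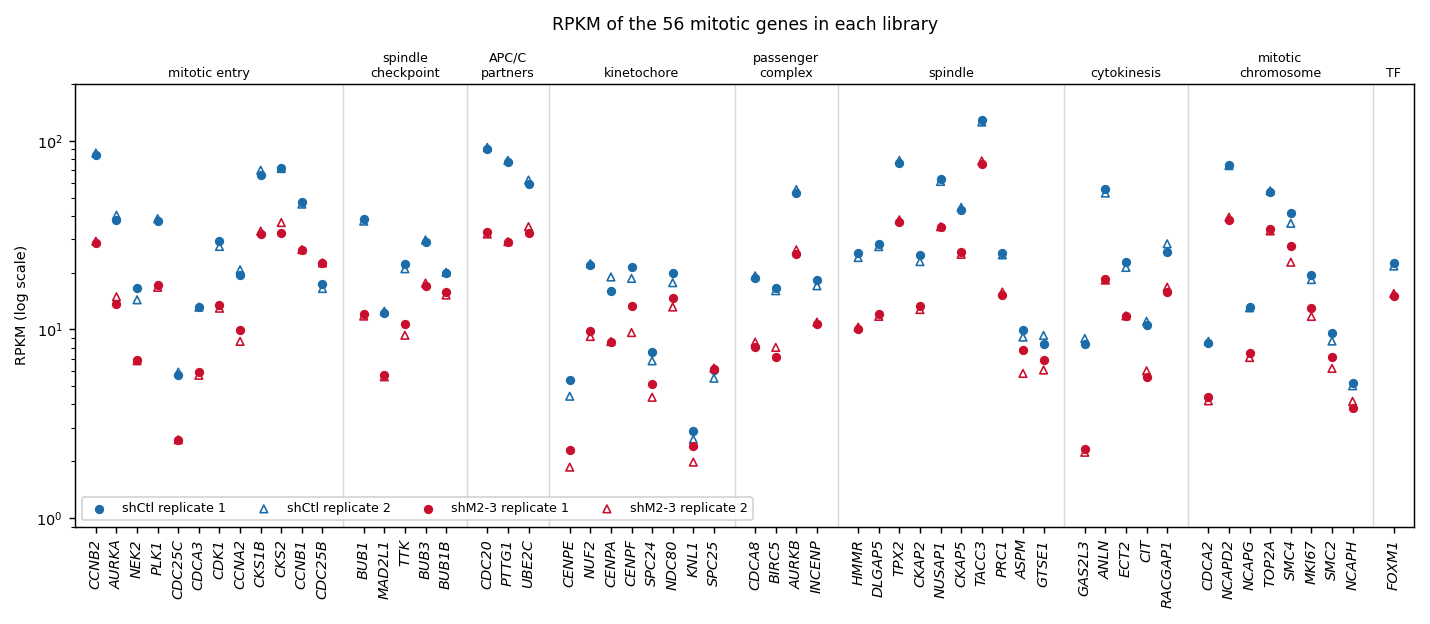
RPKM (y axis, log scale) of each of the 56 mitotic genes (x axis, by role and within a role from the lowest to the highest log2 fold change) in the 2 shCtl (blue) and 2 shM2-3 (red) libraries. The red points lie below the blue points for every gene except CDC25B and SPC25.

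Among the 12 genes of mitotic entry, 11 fell and 1 rose, and 8 of the falls were 2-fold or more. Their median log2 fold change was -1.07. CCNB2, a B-type cyclin that activates CDK1, had an RPKM of 84.2 and 86.1 in shCtl and 28.6 and 29.3 in shM2-3. The replicates lay close together and the groups far apart, and CCNB2 fell by 1.49 on the log2 scale (standard error 0.0503, adjusted p = 1.04e-11). CCNB1, the other main mitotic cyclin, was at 47.5 and 46.2 RPKM in shCtl and at 26.3 and 26.5 in shM2-3, a log2 fold change of -0.76 (standard error 0.0503). The cyclins therefore did not fall by the same amount. In shCtl the RPKM of CCNB2 was 1.77 and 1.87 times that of CCNB1, and in shM2-3 it was 1.09 and 1.11 times, a difference of -0.73 between their log2 fold changes (standard error 0.0711). Such a ratio is taken within a library and does not depend on how the libraries are scaled. With 2 libraries against 2, an exact permutation test of a ratio cannot give a 2-sided p under 0.333, so ratios carry no p. The standard error of a difference joins the edgeR standard errors of both genes as if they varied independently. It is not the spread of the ratio between replicates.

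CCNA2, the cyclin that acts in S phase and at mitotic entry, was at 19.5 and 20.7 RPKM in shCtl and at 9.98 and 8.64 in shM2-3. CDK1, the kinase itself, was at 29.4 and 27.5 RPKM in shCtl and at 13.4 and 12.9 in shM2-3. Both lay at under 50% of the shCtl mean, with 46.3% of the RPKM left for each. CKS1B and CKS2, small proteins that bind cyclin-dependent kinases, had fitted log2 fold changes of -0.996 and -0.99, just short of the 2-fold limit, while their RPKM, which is scaled differently, was at 47.9% and 48.2% of the shCtl mean. Their ratio did not separate the groups, at 0.915 and 0.979 in shCtl and 0.987 and 0.901 in shM2-3.

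The CDC25 phosphatases, which remove the inhibitory phosphates from CDK1, moved in opposite directions. CDC25C was at 5.75 and 5.93 RPKM in shCtl and at 2.60 in both shM2-3 libraries, a log2 fold change of -1.103 (standard error 0.126, adjusted p = 3.07e-06). CDC25B was at 17.4 and 16.5 RPKM in shCtl and at 22.5 in both shM2-3 libraries, a log2 fold change of 0.48 (standard error 0.0498, adjusted p = 1.23e-06). CDC25B was the only one of the 56 that rose, and its groups did not overlap. The RPKM of CDC25C relative to CDC25B went from 0.331 and 0.360 to 0.115 in both shM2-3 libraries, with a difference of -1.58 between the log2 fold changes (standard error 0.135). Of the kinases of this group, AURKA, which matures the centrosomes and activates PLK1, was at 38.1 and 40.3 RPKM in shCtl and at 13.7 and 14.9 in shM2-3, a log2 fold change of -1.39 (standard error 0.0610). PLK1, which acts from mitotic entry to cytokinesis, was at 37.7 and 38.7 RPKM in shCtl and at 17.1 and 16.7 in shM2-3, a log2 fold change of -1.11 (standard error 0.0567). NEK2, which separates the centrosomes, and CDCA3, which promotes mitotic entry, had log2 fold changes of -1.11 and -1.102 and also fell.

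All 5 spindle checkpoint genes fell, 3 of them by 2-fold or more. BUB1, a kinase that sits on unattached kinetochores, was at 38.4 and 37.5 RPKM in shCtl and at 12.1 and 11.8 in shM2-3. About 31.5% was left. BUB1 fell by 1.602 on the log2 scale (standard error 0.0485), and the adjusted p of 3.17e-12 was the smallest of the 56. BUB1B, which encodes the related BUBR1 of the mitotic checkpoint complex, was at 19.99 and 20.1 RPKM in shCtl and at 15.7 and 15.2 in shM2-3, a log2 fold change of -0.31 (standard error 0.0528, adjusted p = 0.000142). These related genes thus marked both ends of the group. The RPKM of BUB1 was 1.92 and 1.87 times that of BUB1B in shCtl and 0.772 and 0.773 times in shM2-3, so their order turned over, with a difference of -1.29 between the log2 fold changes (standard error 0.0717). BUB3, the partner that brings both to the kinetochore, fell by 0.71 on the log2 scale, from 29.2 and 29.8 to 16.9 and 17.6 RPKM. TTK, the MPS1 kinase that starts checkpoint signalling, was at 22.3 and 21.0 RPKM in shCtl and at 10.7 and 9.31 in shM2-3. MAD2L1, the MAD2 protein that binds CDC20, was at 12.2 and 12.5 RPKM in shCtl and at 5.73 and 5.60 in shM2-3. In both genes the groups stood apart.

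The 3 partners of the APC/C all fell. CDC20, which activates the APC/C at anaphase and is the target of the checkpoint, was at 90.4 and 92.3 RPKM in shCtl and at 32.7 and 32.0 in shM2-3, a log2 fold change of -1.43 (standard error 0.0462, adjusted p = 6.38e-12). PTTG1, or securin, which the APC/C destroys to free separase, was at 77.1 and 78.8 RPKM in shCtl and at 28.9 and 29.2 in shM2-3, a log2 fold change of -1.36 (standard error 0.0574). UBE2C, the enzyme that starts ubiquitin chains, fell less, from 59.1 and 61.9 to 32.5 and 35.1 RPKM, a log2 fold change of -0.78 (standard error 0.0611). A further 17 genes were read for APC/C subunits and regulators, among them the enzyme UBE2S. Of these, 6 fell, 4 rose and 7 did not pass the test, where 36.4% of all tested genes were lower and 36.3% higher. The median of the 17 was -0.061 on the log2 scale. The lowest was UBE2S, which extends the chains that UBE2C starts, at 65.9 and 67.4 RPKM in shCtl and 21.0 and 22.1 in shM2-3, and the highest was ANAPC2, a catalytic core subunit, at 7.51 and 7.60 RPKM in shCtl and 13.9 and 12.3 in shM2-3.

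**Figure D3:**
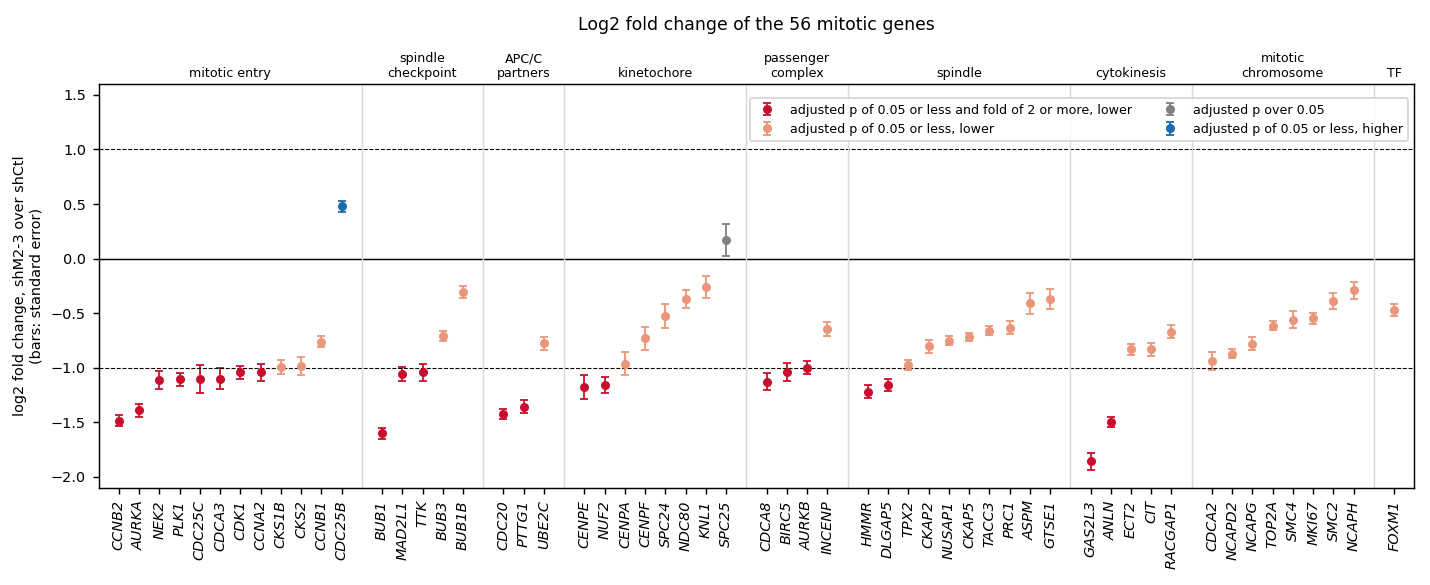
Log2 fold change of the 56 mitotic genes (y axis, shM2-3 over shCtl, with 0 for no difference and dashed lines at 2-fold; bars are standard errors from edgeR, 2 libraries per group) by role (x axis). Red points are the 22 genes called at least 2-fold lower, blue is CDC25B at 0.48 and grey is SPC25 at 0.17; GAS2L3 is the lowest at -1.86.

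The kinetochore genes were an uneven group. Of the 8, 7 fell, 2 of these by 2-fold or more, and the median was -0.63 on the log2 scale. The NDC80 complex, which grips microtubules, is built from 1 copy each of NDC80, NUF2, SPC24 and SPC25. NUF2 was at 22.0 and 22.3 RPKM in shCtl and at 9.75 and 9.16 in shM2-3, a log2 fold change of -1.16 (standard error 0.0755). NDC80, with which it pairs, was at 20.02 and 17.7 RPKM in shCtl and at 14.7 and 13.1 in shM2-3, a log2 fold change of -0.37 (standard error 0.0830). The RPKM of NUF2 exceeded that of NDC80 in both shCtl libraries (ratios 1.1 and 1.26) and was below it in both shM2-3 libraries (0.665 and 0.698). The other pair of the complex diverged too. SPC24 was at 7.55 and 6.81 RPKM in shCtl and at 5.15 and 4.36 in shM2-3, a log2 fold change of -0.53 (standard error 0.113). SPC25 was at 6.08 and 5.50 RPKM in shCtl and at 6.19 and 6.23 in shM2-3, a log2 fold change of 0.17 (standard error 0.148, adjusted p = 0.321). SPC25 was the 1 gene of the 56 that did not pass the test, and its fold change differed from that of NUF2 by 1.33 on the log2 scale (standard error 0.166).

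Among the other kinetochore genes, CENPE, a microtubule motor, was at 5.39 and 4.42 RPKM in shCtl and at 2.28 and 1.86 in shM2-3, a log2 fold change of -1.18 (standard error 0.110). CENPA, the histone H3 variant that marks centromeres, was at 16.0 and 19.0 RPKM in shCtl and at 8.53 and 8.62 in shM2-3. CENPF, a large protein of the outer kinetochore, was at 21.3 and 18.6 RPKM in shCtl and at 13.4 and 9.62 in shM2-3, one of the widest gaps between replicates. KNL1, the scaffold that holds BUB1, was at 2.90 and 2.61 RPKM in shCtl and at 2.41 and 1.98 in shM2-3, a log2 fold change of -0.26 (standard error 0.103, adjusted p = 0.0357). The KNL1 call was lost without shCtl replicate 1 (log2 fold change -0.18, adjusted p = 0.19 by edgeR) and without shM2-3 replicate 2 (-0.13, adjusted p = 0.319), and also with DESeq2 (adjusted p = 0.0974) and with limma on log2(RPKM + 0.1) and log2(RPKM + 1) (adjusted p = 0.0766 and 0.0738). Beyond these 8, 29 further kinetochore and centromere genes were tested. Of these, 11 fell, 7 rose and 11 did not pass, where 36.4% of all tested genes were lower and 36.3% higher. The median of the 29 was -0.18. They ran from HJURP, the chaperone that loads CENPA, at 27.6 and 28.8 RPKM in shCtl and 10.9 and 10.2 in shM2-3, to CENPQ, a subunit of the inner kinetochore, at 4.39 and 4.63 and at 6.42 and 5.60.

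The chromosomal passenger complex, which corrects faulty attachments and guides cytokinesis, fell in all 4 of its genes. AURKB, its kinase, was at 52.6 and 55.1 RPKM in shCtl and at 25.05 and 26.4 in shM2-3, a log2 fold change of -1.0 (standard error 0.0604). BIRC5, or survivin, was at 16.6 and 16.0 RPKM in shCtl and at 7.10 and 8.02 in shM2-3, and CDCA8, or borealin, fell by 1.13 on the log2 scale. The RPKM of AURKB relative to BIRC5 did not separate the groups, at 3.17 and 3.44 in shCtl and 3.53 and 3.29 in shM2-3. INCENP, the scaffold, fell less, from 18.3 and 17.0 to 10.6 and 10.9 RPKM, and the ratio of AURKB to INCENP went from 2.88 and 3.24 to 2.36 and 2.42. The Aurora kinases differed in size of fall, with AURKA at 0.724 and 0.731 times the RPKM of AURKB in shCtl and at 0.546 and 0.564 times in shM2-3.

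All 10 spindle genes fell, 2 of them by 2-fold or more, and their median was -0.74 on the log2 scale. HMMR, a spindle pole protein and hyaluronan receptor, was at 25.4 and 24.04 RPKM in shCtl and at 10.0 and 10.3 in shM2-3, a log2 fold change of -1.22 (standard error 0.0634). DLGAP5, or HURP, which stabilises kinetochore fibres, was at 28.3 and 27.5 RPKM in shCtl and at 12.1 and 11.7 in shM2-3, a log2 fold change of -1.16 (standard error 0.0578). TPX2, which activates AURKA on the spindle, was at 76.4 and 78.8 RPKM in shCtl and at 37.3 and 38.1 in shM2-3. TPX2 fell by 0.98 on the log2 scale (standard error 0.0425) and stayed just short of the 2-fold limit. TACC3, which crosslinks kinetochore fibres and had the highest shCtl RPKM of the 56, was at 128 and 126 in shCtl and at 75.1 and 78.2 in shM2-3. CKAP5, the microtubule polymerase that works with TACC3, went from 43.2 and 44.4 to 25.8 and 25 RPKM, and the log2 fold changes of the partners, -0.72 and -0.66, lay close together. CKAP2, NUSAP1 and PRC1, which bind or bundle microtubules, kept between 54.6% and 61.6% of their RPKM. The smallest falls were those of ASPM, a spindle pole protein, and GTSE1, which acts on microtubules and p53, at -0.41 and -0.37 on the log2 scale. ASPM did not pass with DESeq2 (adjusted p = 0.0788), and its shM2-3 libraries lay well apart, at 7.81 and 5.84 RPKM. Without shM2-3 replicate 1 its log2 fold change was -0.63, and without shM2-3 replicate 2 it was -0.22.

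Cytokinesis held the lowest value of the 56. GAS2L3, which links actin and microtubules in the late steps of division, was at 8.36 and 8.95 RPKM in shCtl and at 2.33 and 2.23 in shM2-3, so that 26.3% remained. ANLN, or anillin, the scaffold of the contractile ring, was at 55.8 and 52.9 RPKM in shCtl and at 18.5 and 18.3 in shM2-3, a log2 fold change of -1.50 (standard error 0.0459, adjusted p = 3.68e-12). The remaining 3 fell by less than 2-fold. ECT2, which activates RHOA at the cell equator, and CIT, or citron kinase, both fell by 0.83 on the log2 scale, and RACGAP1, the partner of ECT2 on the central spindle, fell by 0.67.

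Of the roles with more than 1 gene, mitotic chromosome structure had the median closest to 0, at -0.59 on the log2 scale. All 8 fell, none by as much as 2-fold. In the condensin I complex, NCAPD2 was at 74.5 and 73.9 RPKM in shCtl and at 38.2 and 39.3 in shM2-3, a log2 fold change of -0.87 (standard error 0.0411). NCAPH, the subunit that closes the ring, was at 5.20 and 5.02 RPKM in shCtl and at 3.83 and 4.15 in shM2-3, a log2 fold change of -0.29 (standard error 0.0817, adjusted p = 0.00560). The call of NCAPH was lost without shM2-3 replicate 1 (log2 fold change -0.23, adjusted p = 0.0671 by edgeR). NCAPG lay between them, at 13.2 and 13.01 RPKM in shCtl and 7.49 and 7.09 in shM2-3. The ATPases SMC2 and SMC4, which pair in condensin, fell by 0.39 and 0.56, and their log2 fold changes differed by -0.17 (standard error 0.109). TOP2A, which untangles DNA, was at 53.7 and 54.3 RPKM in shCtl and at 34.0 and 33.3 in shM2-3. MKI67, the gene of the Ki-67 proliferation antigen that coats mitotic chromosomes, was at 19.4 and 18.4 RPKM in shCtl and at 12.9 and 11.7 in shM2-3, a log2 fold change of -0.55 (standard error 0.0508). CDCA2, which brings a phosphatase to chromosomes at mitotic exit, was lowest of the 8 at -0.94.

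**Figure D4:**
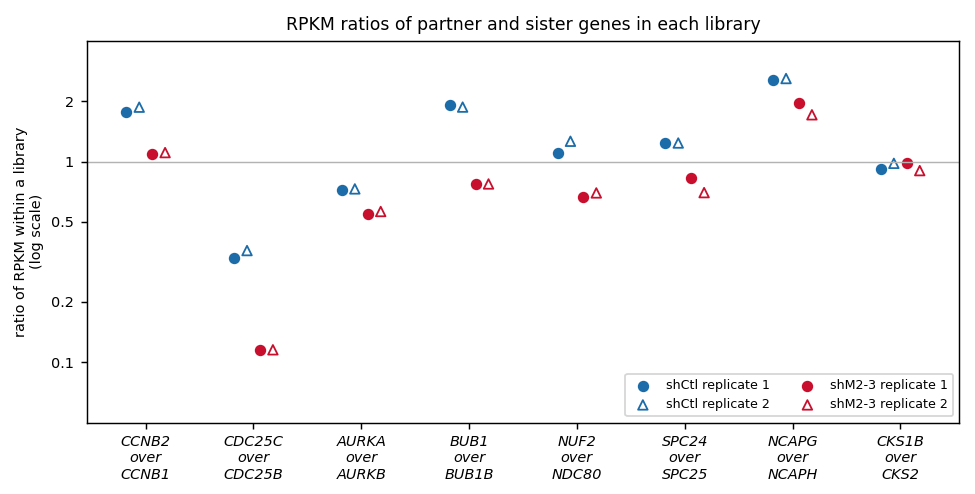
Ratio of the RPKM of 1 gene to that of its partner or sister gene (y axis, log scale) for 8 pairs (x axis) in the 2 shCtl (blue) and 2 shM2-3 (red) libraries. The groups separate for every pair shown except CKS1B over CKS2, and BUB1 over BUB1B and NUF2 over NDC80 pass from above 1 to below 1.

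FOXM1, the transcription factor of the set, was at 22.6 and 21.7 RPKM in shCtl and at 15.0 and 15.5 in shM2-3. Its log2 fold change of -0.47 (standard error 0.0548, adjusted p = 3.53e-06) was smaller than the median of the genes listed with it. The complexes that read CHR elements were followed through 13 DREAM and MMB genes. Of these, 3 fell, 6 rose and 4 did not pass the test, where 36.4% of all tested genes were lower and 36.3% higher. The median of the 13 was 0.24. MYBL1, or A-MYB, was lowest, at 27.8 and 27.1 RPKM in shCtl and at 3.16 and 3.25 in shM2-3, a log2 fold change of -3.03 (standard error 0.0583). TFDP2, a partner of E2F factors in DREAM, was highest, at 3.21 and 3.36 RPKM in shCtl and at 5.55 and 5.35 in shM2-3. MYBL2, or B-MYB, the usual MYB subunit of MMB in dividing cells, was named after its values were seen. It rose from 7.70 and 7.49 to 9.71 and 9.44 RPKM, a log2 fold change of 0.40 (standard error 0.0827, adjusted p = 0.000645). The MYB genes thus stood in opposite order in the groups, with MYBL1 above MYBL2 in both shCtl libraries and below it in both shM2-3 libraries.

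Within the mitotic genes, the log2 fold changes of genes with and without CHR or CCAAT matches overlapped in range. Genes with a CHR match had a median log2 fold change of -0.85 (n = 38) and those without one -0.90 (n = 8). CHR was present in 15 of the 19 called at least 2-fold lower (78.9%) and in 23 of the 27 others (85.2%). For CCAAT the medians were -0.96 (n = 33) and -0.78 (n = 13), with matches in 73.7% of the called and 70.4% of the other genes. The form TTTGAA alone was found in 57.9% of the called and 77.8% of the other genes, and at least 2 CCAAT matches in 42.1% and 59.3%. These shares rest on 19 and 27 promoters and were not tested. SPC25 and CCNB2, whose printed promoters hold both motifs in different number and spacing, had log2 fold changes of 0.17 and -1.49. The SPC25 window stands at a start well inside its gene, and which start these cells use was not measured. Other motifs were rare, with both strands searched for each. An E2F motif (TTTCCCGC, TTTCGCGC, TTTGCCGC or TTTGGCGC) was found in 3 of the 46 promoters (6.52%), in 5.62% of the promoters of other tested genes and in 3.33% of all promoters. The MYC E-box CACGTG was found in 5 (10.9%), in 10.2% of the other tested and in 7.43% of all. The TEAD motif GGAATG was found in 4 (8.70%), in 10.9% of the other tested and in 14.0% of all. Of the called genes, 3 of 19 held the E-box and 3 of 19 the TEAD motif, and of the others 2 of 27 and 1 of 27.

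The mitotic genes were set beside lists of related function that were not part of them. Which genes entered which list was decided with earlier results of these data known. Over all tested genes, 36.4% were lower and 36.3% higher at the adjusted p limit. A change of 2-fold or more was called lower for 8.93% and higher for 9.24%. In 6 lists of other mitotic genes (91 tested), 41 fell, 20 rose and 30 did not pass the test, 9 were called at least 2-fold lower and 0 higher, and the median was -0.18. The list of centrosome and midbody genes came closest, with 10 of 13 lower and a median of -0.86. Its lowest gene, CEP55, which recruits the abscission machinery, was at 35.1 and 29.9 RPKM in shCtl and at 9.82 and 8.71 in shM2-3, and its highest, CDK5RAP2, a centrosome scaffold, had a log2 fold change of 0.59. In 14 other mitotic entry genes, 8 fell and 3 rose, from PBK, a mitotic kinase, at -1.33 to ENSA, an inhibitor of the phosphatase PP2A, at 0.35. In 13 cohesin and separase genes, 4 fell and 3 rose, from SGO1, which protects cohesion at centromeres, at -0.66 to STAG1, a cohesin subunit, at 0.55. In 5 condensin II and other chromosome genes, 2 fell and 1 rose, from NCAPG2 at -0.54 to NCAPH2 at 0.36. The 40 DNA replication genes, active in S phase, held 23 that fell, 7 that rose and 10 that did not pass, with a median of -0.33. They ran from ORC1, of the origin recognition complex, at -1.30 to MCM10, which helps start forks, at 0.99. Their promoters differed in kind, with an E2F motif in 17 of 35 (48.6%) and CHR in 4 of 35 (11.4%).

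**Figure D5:**
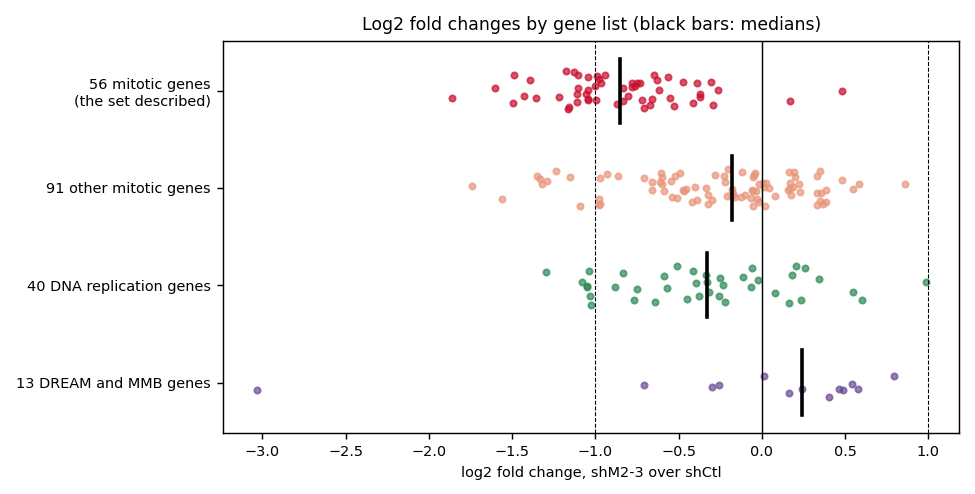
Log2 fold change (x axis, shM2-3 over shCtl) of each gene (points) in 4 gene lists (y axis), with the median of each list as a black bar and dashed lines at 2-fold. The 56 mitotic genes have a median of -0.85, the 91 other mitotic genes -0.18, the 40 DNA replication genes -0.33 and the 13 DREAM and MMB genes 0.24, with MYBL1 far to the left at -3.03.

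The limit of 2-fold runs through a dense stretch of these genes. Just inside it lay MAD2L1, CDK1, TTK, BIRC5, CCNA2 and AURKB, between -1.06 and -1.0, and just outside it CKS1B, CKS2, TPX2, CENPA and CDCA2, between -0.996 and -0.94. Single libraries moved genes over it. The log2 fold change of AURKB was -0.97 without shCtl replicate 2 and -0.95 without shM2-3 replicate 1, that of BIRC5 was -0.95 without shM2-3 replicate 1, and those of CDK1 and TTK were -0.99 and -0.995 without shCtl replicate 1. NEK2 also fell short without shCtl replicate 1, and CCNA2 (-0.95) and TTK (-0.95) without shM2-3 replicate 2. All of them still passed the adjusted p limit.

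Properties of the measurement were read beside the falls. Across the 56 genes, which are not independent replicates and share these 4 libraries, log2 fold change and log2 transcript length had r = 0.234 and rho = 0.314, and across all 12157 tested genes r = 0.140 and rho = 0.188. The shM2-3 libraries lay farthest apart in CENPF, ASPM, CENPE, KNL1, SMC4, SPC24 and CCNA2, where the RPKM of replicate 1 was between 1.16 and 1.39 times that of replicate 2. In shCtl, replicate 1 was also above replicate 2 in these genes (1.09 to 1.22 times), except in CCNA2 (0.941 times). CENPF, ASPM, CENPE and KNL1 had lengths of 10040 to 12830 bases, compared with a median of 3876 over the 56. SPC24 and CCNA2 were shorter than that median, at 3124 and 3232 bases. The long genes CIT and MKI67 (10280 and 14980 bases) had shM2-3 ratios of 0.922 and 1.11. Whether length played a part was not tested. Overlapping neighbours can also mix in, those on the opposite strand because the libraries were not strand-specific. Exons of 20 of the 56 overlap another gene in GENCODE, while the counts were made on RefSeq genes. The largest overlaps were with unnamed protein-coding genes on the same strand, in NUSAP1 (81.4% of its exon length) and PRC1 (57.6%). On the opposite strand, PRC1-AS1 overlaps 34.3% of PRC1 and LCORL 33.7% of NCAPG. The values of NUSAP1, PRC1 and NCAPG are therefore less certain. A further limit is that 18 of the 56 have at least 1 pseudogene carrying their name. Reads that match both could be lost, since ambiguous alignments were removed, or counted for the wrong copy.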

How the data were processed

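Paired-end RNA-seq libraries of 150 base reads, non-strand-specific, were analysed from 2 shCtl and 2 shM2-3 samples, grouped by their labels. The submitters' processing notes name HISAT2 2.0.4, Partek 7.18 and hg38. The authors removed ambiguous and low-quality alignments, quantified RefSeq genes, and deposited estimated counts, not normalized and not always whole, and RPKM values, which are these counts scaled by gene length and mapped reads. Both tables hold 19626 genes.

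The estimated counts, rounded, entered edgeR 4.0.16 (R 4.3.3). TMM factors, estimateDisp, glmQLFit and glmQLFTest were used without a block for the 12157 genes whose RPKM exceeded 1 in any library. A gene passed when its p after Benjamini-Hochberg adjustment was at most 0.05, and was called lower or higher when its fold change also reached 2. These limits and edgeR follow the study's methods. A standard error is the log2 fold change divided by the square root of F. For a difference between log2 fold changes, it is the square root of the summed squares of both standard errors. With 2 libraries per group, every spread rests on a pair of values. Totals were 20051083 to 23978660 counts, and the biological coefficient of variation was 0.0485. The test was also run on simulated counts with a common dispersion and few changed genes, as a check of the code only.

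The genes and lists were chosen with earlier results of these data known. The genes named are the 56, MAML2, the lowest and highest tested gene of each further list, the markers, and MYBL2, which was added later. A gene fixed among the epithelial markers was not analysed here. Lists are described by counts and medians, with no test of a list. Coordinates and overlaps come from GENCODE release 44 on hg38, and promoters from RefSeq. Alternatives were total counts, other filters, DESeq2 1.42.0, limma 3.58.1 on log2 RPKM, a length trend subtracted, a replicate block, a 1.5-fold limit and each library left out.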

Additional observations from a re-analysis of the deposited data

How the results depend on the processing

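No gene of the 56 changed direction under any alternative run. The median log2 fold change of -0.85 became -0.89 with total counts, -0.88 with no RPKM filter, -0.87 with edgeR's filterByExpr, -0.91 with limma on log2(RPKM + 0.1) and -0.90 with the length trend subtracted, and ranged from -0.896 to -0.862 with each library left out. Total counts moved the median of all tested genes by -0.035. With the length trend subtracted, the log2 fold changes of 42 of the 56 moved by at least their standard error, and 14 moved by less. A 1.5-fold limit called 43 of the 56 lower in place of 22, where it called 2302 genes lower and 2296 higher in all. With each library left out, 20 to 22 were called lower and 53 to 54 passed the adjusted p limit as lower, 0 were called higher and 1 passed as higher, and MAML2 ranged from -1.43 to -1.37; the group left with 1 library is then assumed to vary like the other. DESeq2 called 21 lower (AURKB lost). Total counts and no RPKM filter each called 25 (CKS1B, CKS2 and TPX2 gained), filterByExpr 24 (CKS1B and CKS2 gained) and limma on log2(RPKM + 0.1) 26 (CKS1B, CKS2, TPX2 and CENPA gained). Limma on log2(RPKM + 1) called 23, with CDC25C and CENPE lost and CKS1B, CKS2 and TPX2 gained. Of the 12157 genes tested in all, DESeq2 called 1057 lower, total counts 1148 and limma on log2(RPKM + 0.1) 1175. No RPKM filter called 1523 of 19626 lower and filterByExpr 1444 of 14436. With limma on log2(RPKM + 1), 724 genes in all were called lower and 596 higher, in place of 1086 and 1123 in the main run. Replicate numbers did not pair the libraries as a whole (correlation of deviations -0.029, 2 pairs). In CENPF, ASPM, CENPE, KNL1, SMC4 and SPC24, however, replicate 1 was above replicate 2 in both groups. In CCNA2 the order of the replicates differed between the groups. Whether replicate number acted on these genes was not tested. A replicate block left 21 genes called lower (AURKB lost), 54 that passed as lower and a median of -0.85. With this block, 1079 of all 12157 tested genes were called lower and 4395 passed as lower. Depth limits CDC25C and SPC25 most, since they had the fewest counts, down to 173 in a library.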
